A study of Mus musculus with 6 samples.

Results

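The genes described here are the abundant long noncoding RNAs of the mouse heart outside the sex chromosomes. They were chosen by their mean level, as genes annotated as long noncoding RNA on chromosomes 1 to 19, other than H19, Meg3 and Mhrt, with a mean value of at least 100 over all 6 libraries. This gave 183 genes of 20893 in the table, and of 3420 long noncoding RNA genes. A further 7 long noncoding RNA genes reached 100 and were left out by the rule, and 3171 on the autosomes lay under it. The mean level chose these genes, so their abundance is given as a description. The difference between knockout and wildtype was not used in the choice.

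Messenger RNA of hearts was sequenced from stranded libraries with single-end reads of 72 bases, 3 libraries with a germline knockout of Rbpms (R1KO in the labels) and 3 wildtype libraries, all labelled C57BL6/J. The controls were littermates per the design text, and no further allele or treatment is named for either group. The stage is embryonic in the series title and neonatal in the design text, so it is not settled here, and neither age nor pooling of animals is given. Nothing states that each library came from its own animal, so p-values cover the spread among the 6 libraries, which may be technical. Each value, called a normalized value below, is a scaled and rounded read count, with its own scaling factor in each library. The estimated reads in genes ran from 4163279 to 5805240 per library.

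A long noncoding RNA is a transcript made much like a messenger RNA that is not known to be translated into protein. Some act as RNA at chromatin or in nuclear bodies, some are carriers from whose introns small nucleolar RNAs (snoRNAs, which guide the modification of other RNAs) or microRNAs are cut, and many lie antisense to or head to head with a protein coding gene. For most of the numbered or predicted genes no function is known. In the heart, transcripts of this class are known near genes of cardiac transcription factors and of contractile and natriuretic proteins. RBPMS is an RNA-binding protein of muscle that recognizes pairs of CAC triplets in RNA and regulates splicing.

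Rbpms had normalized values of 375, 340 and 507 in knockout replicates 1, 2 and 3 and of 1182, 1176 and 1317 in wildtype replicates 1, 2 and 3. The gene was lower in every knockout library, by 1.61 on the log2 scale (limma adjusted p = 0.0124), and transcript remained in all of them. The paralogue Rbpms2 had values of 526, 535 and 486 against 551, 510 and 577 (limma adjusted p = 0.627). Cardiomyocyte markers summed to between 13794 and 16582 in every library, and none of the marker genes of 12 cell type lists passed the test. The table holds no value for 3 of 4 lung markers and 3 of 4 thymus markers.

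Knockout replicate 3 stood apart from the other libraries. It held the lowest of the 6 values in 82 of the 183 long noncoding RNAs (44.8%), against 25.1% of 9923 protein coding genes with a mean of at least 100. It lay more than 1.25-fold below all other libraries in 42 of them (23.0%, against 3.56% of those protein coding genes) and more than 1.25-fold above all others in 15 (8.2%, against 4.84%). No other library did so in more than 3 of the 183, in either direction. The median SD of the log2 values in the knockout group was 0.22 with this library and 0.0893 without it, and 0.11 in the wildtype group. The same library had an erythroid marker sum of 1881, against 552 to 711 in the other libraries, and an epicardium marker sum of 539, against 956 to 1069. Smooth muscle markers summed to 1318, 1589 and 1715 in the knockout libraries, all below the 1995, 1823 and 2095 of the wildtype libraries. Not every marker of that list followed the sum, as Tagln had values of 246, 362 and 512 against 381, 343 and 373. Mitosis markers summed to 827, 1048 and 1926 against 1799, 1357 and 1842, low in knockout replicates 1 and 2. Knockout replicate 3 read as female, with an Xist value of 1763, as did wildtype replicate 1 with 1770, while Xist was between 2 and 14 in the others. The part of these differences in the results was not tested, and in heart RNA fewer cells of a type and less RNA per cell cannot be told apart. Fold changes that rest on this library are therefore given with and without it.

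For the long noncoding RNAs that rose in knockout hearts, the sequences around their starts are shown first, because 4 of the 6 have an entry in the RefSeq promoter table. Each runs 5′ to 3′ from 250 bases before to 50 bases after the start in that table, on the strand of the gene, in the build GRCm38.p6. Capitals mark the matches to any of 4 motifs on either strand.
Gm5113, chr7:30169625-30169924, plus strand: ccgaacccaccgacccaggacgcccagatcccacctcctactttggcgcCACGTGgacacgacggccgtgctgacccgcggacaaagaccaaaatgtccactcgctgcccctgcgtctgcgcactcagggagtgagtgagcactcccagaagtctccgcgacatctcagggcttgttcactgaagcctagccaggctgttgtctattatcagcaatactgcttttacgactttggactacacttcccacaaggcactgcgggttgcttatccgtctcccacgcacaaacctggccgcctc
Hectd2os, chr19:36689430-36689729, minus strand: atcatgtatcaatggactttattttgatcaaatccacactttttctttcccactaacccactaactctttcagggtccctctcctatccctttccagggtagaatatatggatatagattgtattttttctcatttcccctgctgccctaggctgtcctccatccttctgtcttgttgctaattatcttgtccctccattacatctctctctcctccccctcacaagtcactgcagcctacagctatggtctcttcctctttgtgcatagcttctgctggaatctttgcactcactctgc
Snhg14, chr7:60450128-60450427, minus strand: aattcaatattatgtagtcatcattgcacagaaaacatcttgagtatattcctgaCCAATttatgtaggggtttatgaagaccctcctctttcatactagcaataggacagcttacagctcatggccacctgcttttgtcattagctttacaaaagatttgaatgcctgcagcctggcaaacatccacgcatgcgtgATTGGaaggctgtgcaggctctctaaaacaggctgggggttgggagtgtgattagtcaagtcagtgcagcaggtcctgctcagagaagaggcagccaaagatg
E230013L22Rik, chr8:11477679-11477978, plus strand: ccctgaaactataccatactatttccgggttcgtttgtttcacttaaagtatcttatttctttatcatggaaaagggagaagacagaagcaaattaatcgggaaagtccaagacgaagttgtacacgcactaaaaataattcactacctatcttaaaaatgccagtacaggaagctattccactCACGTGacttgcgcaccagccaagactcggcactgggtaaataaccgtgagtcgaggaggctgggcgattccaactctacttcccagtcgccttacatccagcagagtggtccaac
The motifs were the TATA box (TATAAA), the CCAAT box (CCAAT), the GC box (GGGCGG) and the E-box (CACGTG), searched on both strands, and no match overlaps another in these 4 sequences. The E-box was present once in Gm5113 and once in E230013L22Rik, against 7.15% of all 32851 promoters of this length and 10.5% of 114 promoters of 98 of the genes described here. Snhg14 held 2 CCAAT boxes, a motif present in 37.4% of all promoters and 43.0% of the 114. The TATA box and the GC box were absent from the 4 sequences and present in 13.6% and 35.7% of all promoters. The number of CG dinucleotides was 20 in Gm5113, 12 in E230013L22Rik, 2 in Snhg14 and 0 in Hectd2os. The median was 15 over the 114 promoters and 7 over all promoters. The RefSeq and GENCODE M21 starts of E230013L22Rik are the same base. The RefSeq start of Hectd2os lies 16162 bases inside its GENCODE gene. That of Snhg14 lies 474418 bases upstream of its GENCODE start and 309958 bases upstream of the GENCODE start of Snrpn, so the window is not that of the Snhg14 gene model that GENCODE gives. Gm5113 had no GENCODE match by identifier. The letters describe these windows only.

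All 183 long noncoding RNAs passed the filter on low values (3 or more libraries with a value of 10 or more) and entered a limma fit over 14974 genes. A gene was called where its p, adjusted over all of these genes by the Benjamini-Hochberg method, was under 0.05. By that call 6 of the 183 rose in knockout hearts (3.28%), against 0.508% of all tested genes, and 0 fell, against 0.434% of all tested genes. Differences are log2 fold changes of knockout over wildtype on the scale of log2(value + 1). Their median over the 183 genes was -0.0145, with 90 above and 93 below 0, and -0.000893 over all tested genes. Without knockout replicate 3 the median over the 183 was 0.0179. At an unadjusted p under 0.05, limma called 21 higher and 14 lower, 19.1% of the 183 against 16.4% of all tested genes. The libraries of the groups did not overlap in 44 (22 higher and 22 lower, 24.0%), against 22% of all tested genes. Both of these shares lay near the background.

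**Figure D1:**
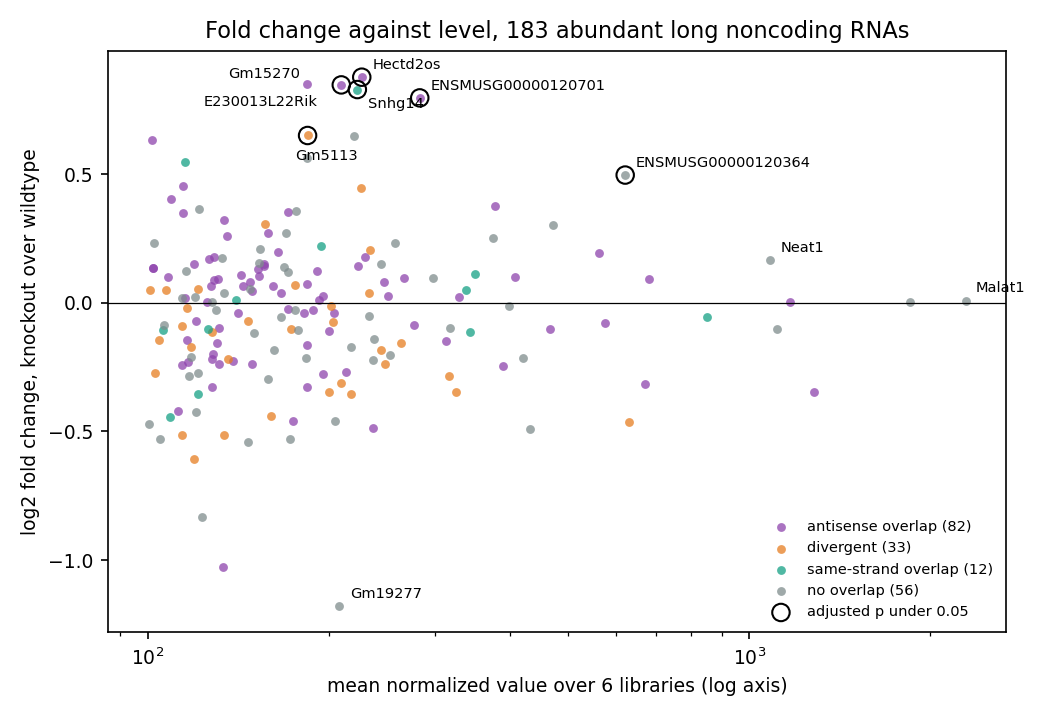
Each point is 1 of the 183 long noncoding RNAs, with its mean normalized value over 6 libraries on a log axis and its log2 fold change of knockout over wildtype on the vertical axis. Colours give the position relative to protein coding genes and open circles mark the 6 genes with a limma adjusted p under 0.05, which all lie above 0, while Malat1 at the right lies at 0.01.

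Of the genes that rose, Gm5113 (chr7:29869300-29881749 in mm39, plus strand) starts 125 bases from Zfp146, a zinc finger protein gene, and runs away from it. Gm5113 had normalized values of 216, 231 and 229 in the knockout libraries and 146, 149 and 135 in the wildtype libraries. All knockout values lay above all wildtype values. The log2 fold change was 0.65 with an SE of 0.096 (limma adjusted p = 0.0242). Zfp146 itself had values of 305, 343 and 297 against 328, 366 and 340, and did not pass the test (limma adjusted p = 0.481).

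Hectd2os (chr19:36544889-36683041, minus strand) lies antisense to Hectd2, a gene of the HECT ubiquitin ligase family. Its normalized values were 306, 263 and 311 in knockout and 131, 177 and 173 in wildtype libraries, again with no overlap of the groups. It had the largest log2 fold change of the 6, 0.88 with an SE of 0.13 (limma adjusted p = 0.0265). The sense gene Hectd2 had values of 96, 80 and 191 against 100, 102 and 97, so that knockout replicate 3 was high and the other knockout libraries were not (limma adjusted p = 0.796). The labels call the libraries stranded but the sources used here do not give the strand setting of the authors' counting, so reads of a gene and of its antisense partner may not be separated in this and every other antisense pair below.

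Snhg14 (chr7:58957672-59625507, minus strand) is the long host transcript of snoRNA clusters in the imprinted Prader-Willi region and runs antisense into Ube3a, a ubiquitin ligase gene. Its normalized values were 302, 236 and 321 in knockout and 159, 170 and 150 in wildtype libraries, with the groups apart. The log2 fold change was 0.83 with an SE of 0.13 (limma adjusted p = 0.0267). Snrpn, the splicing protein gene upstream on the same strand, had values of 223, 185 and 191 against 131, 138 and 146, also without overlap, but did not pass the test (0.52, limma adjusted p = 0.0669). Ube3a had values of 1059, 1009 and 1037 against 878, 999 and 911 (limma adjusted p = 0.288).

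E230013L22Rik (chr8:11527897-11530243, plus strand) lies antisense to Rab20, which encodes a small GTPase of vesicle traffic. Its normalized values were 321, 232 and 258 in knockout and 148, 164 and 135 in wildtype libraries. The lowest knockout value was above the highest wildtype value, and the log2 fold change was 0.85 with an SE of 0.13 (limma adjusted p = 0.0315). Rab20 had values of 321, 270 and 305 against 253, 249 and 256, which did not overlap either but did not pass the test (limma adjusted p = 0.219).

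ENSMUSG00000120701 (chr19:36092614-36096252, plus strand), a gene without a symbol, lies antisense to Ankrd1, a cardiac ankyrin repeat protein that responds to mechanical load. Its normalized values were 356, 291 and 436 in knockout and 187, 226 and 203 in wildtype libraries, with a log2 fold change of 0.80 and an SE of 0.14 (limma adjusted p = 0.0494). Ankrd1 rose as well, from 1123, 1232 and 1228 in wildtype to 1677, 1539 and 1899 in knockout libraries (0.51, limma adjusted p = 0.0372, and 0.43 with an adjusted p of 0.00455 without knockout replicate 3). The antisense value was 21.2%, 18.9% and 23.0% of the Ankrd1 value in the knockout libraries and 16.6%, 18.3% and 16.5% in the wildtype libraries. Both genes were highest in knockout replicate 3, and without it the log2 fold change of the antisense gene was 0.65 (limma adjusted p = 0.00532).

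ENSMUSG00000120364 (chr11:31495794-31499656, plus strand) overlaps no protein coding gene, and the nearest, Bod1, lies 115525 bases away. Its normalized values were 755, 729 and 696 in knockout and 521, 452 and 579 in wildtype libraries. The groups did not overlap, and the log2 fold change was 0.50 with an SE of 0.092 (limma adjusted p = 0.0494). It had the highest level of the genes that rose.

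**Figure D2:**
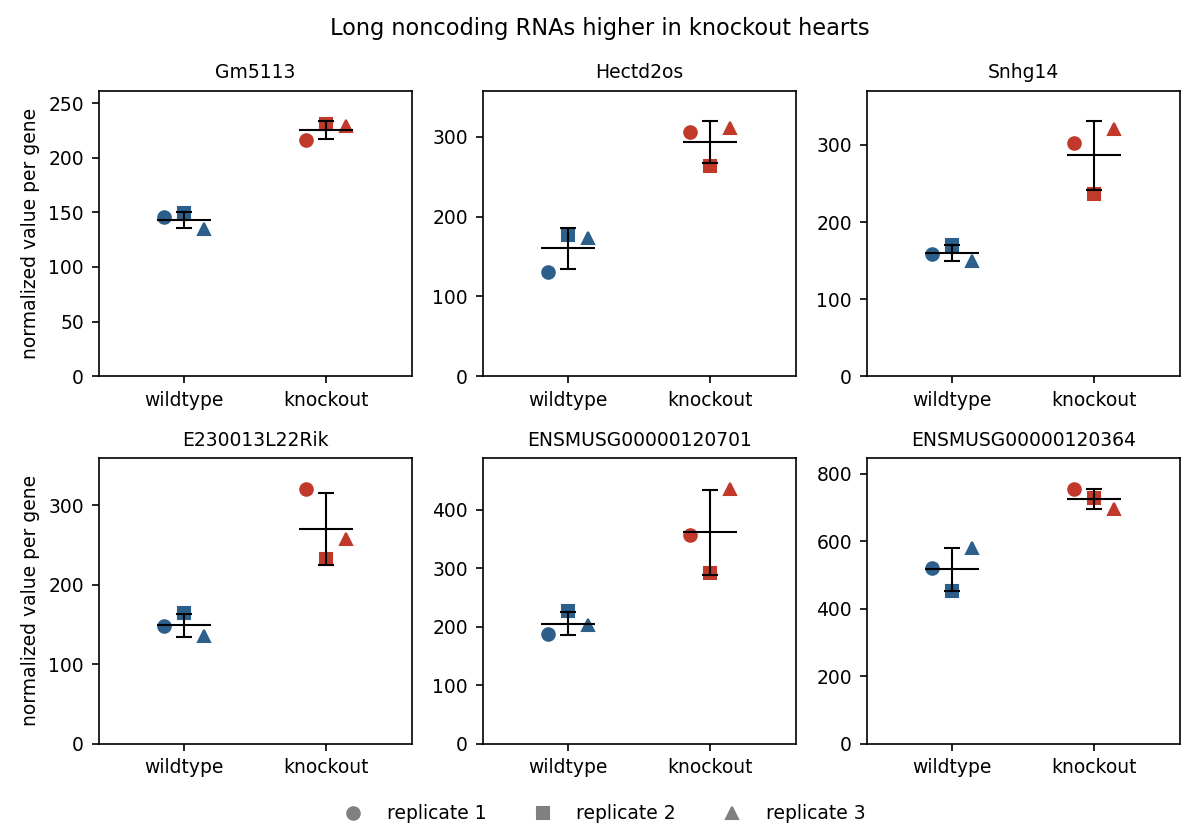
Normalized values per library (vertical axes, from 0) of the 6 long noncoding RNAs that rose, in 3 wildtype (blue) and 3 knockout (red) libraries, with symbols for the replicate, a long line for the group mean and bars of 1 SD. In every panel all knockout points lie above all wildtype points.

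The fold changes of the 6 genes held their sign in all 18 alternative fits, although the calls did not hold in all of them. Over these fits the log2 fold change ran from 0.607 to 0.68 in Gm5113, from 0.694 to 0.954 in Hectd2os, from 0.738 to 0.961 in Snhg14 and from 0.716 to 0.95 in E230013L22Rik. It ran from 0.585 to 0.941 in ENSMUSG00000120701 and from 0.402 to 0.581 in ENSMUSG00000120364. All 6 were also called without knockout replicate 2 or without knockout replicate 3. Without knockout replicate 1 or without wildtype replicate 1, 2 or 3, 0 of the 183 were called by limma, and 36, 18, 25 and 23 had an unadjusted p under 0.05. Over all 14974 tested genes, 1911, 1477, 2176 and 1852 had such a p in these fits.

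Without knockout replicate 3 limma called 10 of the 183 higher (5.46%, against 2.26% of all tested genes) and 2 lower (1.09%, against 2.6% of all tested genes). The additional higher genes were A930033H14Rik, Gm13054, Gm15417 and Crnde. Of the 10, A930033H14Rik and Gm15417 reached the mean of 100 only through the knockout libraries, so their choice was not independent of this difference. Among all 183, 8 had a wildtype mean and 10 a knockout mean under 100, and none of the 6 genes called with all libraries was among them. Gm15417 had values of 149, 135 and 92 in knockout and 84, 103 and 92 in wildtype libraries (0.40 with all libraries, adjusted p = 0.329 in limma, and 0.61 without knockout replicate 3, adjusted p = 0.0251). Crnde, a gene next to Irx5, had values of 190, 195 and 137 against 150, 125 and 143 (0.31 with all libraries, adjusted p = 0.359 in limma, and 0.47 without that replicate, adjusted p = 0.0374). In both, knockout replicate 3 lay within the wildtype range. The 2 lower genes were Gm19277 and ENSMUSG00000120992. Gm19277 had the lowest fold change of the 183, with values of 161, 181 and 63 against 303, 312 and 229 (-1.18, limma adjusted p = 0.226 with all libraries). Its groups did not overlap, and without knockout replicate 3 the log2 fold change was -0.70 (limma adjusted p = 0.00981). ENSMUSG00000120992 had values of 247, 234 and 386 against 383, 297 and 406 (-0.35, limma adjusted p = 0.456), and a log2 fold change of -0.58 without that replicate (limma adjusted p = 0.0185).

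Without knockout replicate 2 limma called 8 of the 183 higher (4.37%, against 1.78% of all tested genes) and 1 lower (0.546%, against 1.63% of all tested genes). The genes gained were Gm13054 and Gm15270, higher, and BC043934, lower. BC043934 had values of 145, 187 and 99 in knockout and 195, 201 and 208 in wildtype libraries, without overlap. Its log2 fold change was -0.53 with all libraries (limma adjusted p = 0.242), -0.74 without knockout replicate 2 (0.0414) and -0.29 without knockout replicate 3 (0.199).

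The next 4 genes by p did not pass with all libraries, although their groups did not overlap. A930033H14Rik, antisense to Rhobtb1, had values of 127, 123 and 121 in knockout and 79, 89 and 71 in wildtype libraries (0.63, limma adjusted p = 0.0669). Gm13054, antisense to Nppa, the gene of atrial natriuretic peptide, had values of 428, 399 and 453 against 325, 356 and 306 (0.37, limma adjusted p = 0.0759). Nppa had values of 752, 763 and 743 against 699, 691 and 737, a smaller difference between the groups than in its antisense gene. C130080G10Rik starts 787 bases from Actc1, the gene of cardiac actin, on the opposite strand. It had values of 273, 237 and 273 against 165, 202 and 209 (0.45, limma adjusted p = 0.107). Rian, an imprinted host of snoRNAs and microRNAs, had values of 494, 509 and 560 against 452, 415 and 401 (0.30, limma adjusted p = 0.109).

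By position, 12 of the 183 overlapped a protein coding gene on the same strand and 82 others overlapped one on the opposite strand only (antisense). A further 33 started within 2000 bases of one on the opposite strand without overlap (divergent), and the remaining 56 overlapped none. Same-strand overlap was counted first, so Snhg14, Gm12940 and Gm47644, which also overlap a gene on the opposite strand, are in that class only. The 6 genes that rose were 3 antisense, 1 divergent, 1 same-strand (Snhg14) and 1 without overlap. Across pairs, Pearson's r between the log2 fold change of the long noncoding RNA and that of its protein coding partner was 0.26 over 82 antisense pairs and 0.16 over 33 divergent pairs. It was 0.44 over 53 genes without overlap and their nearest neighbours, and 0.44 over 11 same-strand pairs. The points share the 6 libraries and are not independent. Gm15270, antisense to Ccn2, a matrix protein gene, had values of 231, 138 and 360 in knockout and 129, 138 and 109 in wildtype libraries (0.85, limma adjusted p = 0.265). Its log2 fold change was 1.20 without knockout replicate 2 (limma adjusted p = 0.0174) and 0.51 without knockout replicate 3 (0.198). Ccn2 had 1214, 956 and 1617 against 665, 641 and 566 (0.99, limma adjusted p = 0.0615, and 0.79 with 0.0023 without knockout replicate 3). In both genes the order within the knockout group was the same, replicate 3 highest and replicate 2 lowest.

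**Figure D3:**
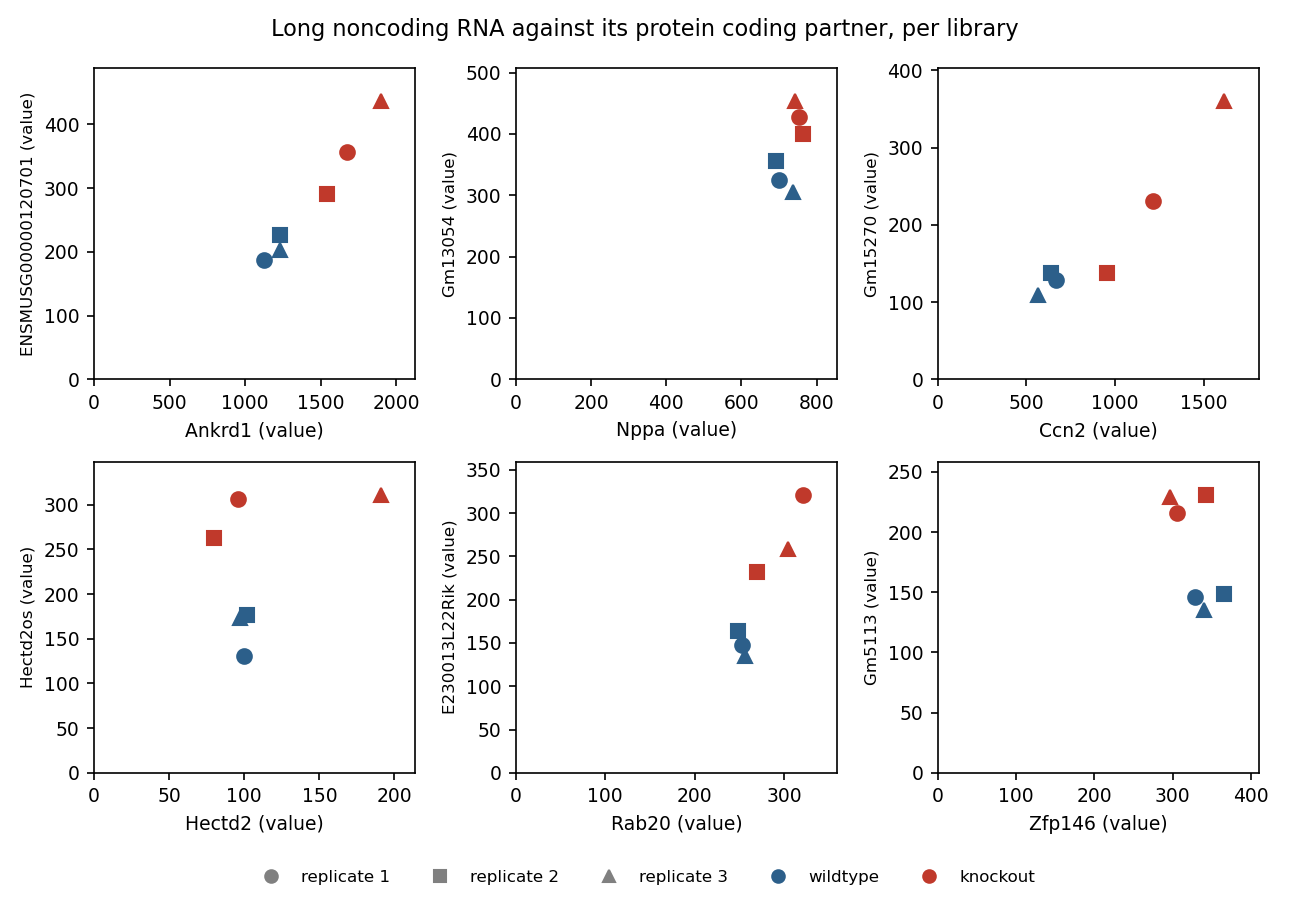
Normalized value of a long noncoding RNA (vertical axes) against that of its protein coding partner (horizontal axes) in each of 3 wildtype (blue) and 3 knockout (red) libraries, both axes from 0. In the Ankrd1 and Ccn2 panels both genes are highest in knockout replicate 3, whereas in the Zfp146 panel Gm5113 is higher in the knockout libraries while the Zfp146 ranges overlap.

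Among the genes of nuclear bodies and chromatin, Malat1, the RNA of nuclear speckles, had the highest mean of the 183. Its normalized values were 2404, 2374 and 2120 in knockout and 2347, 2290 and 2213 in wildtype libraries (log2 fold change 0.01, limma adjusted p = 0.966). Neat1, the scaffold of paraspeckles, had values of 959, 969 and 1533 against 1070, 847 and 1113 (0.17, limma adjusted p = 0.741, and -0.06 with 0.831 without knockout replicate 3). Only knockout replicate 3 stood above the wildtype range there. Norad, a cytoplasmic RNA that binds PUMILIO proteins, had values of 305, 333 and 286 against 301, 265 and 297, and the imprinted silencers Airn and Kcnq1ot1 had 267, 244 and 251 against 226, 264 and 231, and 170, 190 and 166 against 128, 183 and 151. The groups overlapped in all 5 genes of this list, and 0 of 5 was called by limma.

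Next to Malat1 in mean level stood Oip5os1, also known as Cyrano, with values of 1865, 1911 and 1786 in knockout and 1833, 1854 and 1869 in wildtype libraries. Its groups overlapped and its log2 fold change was 0.001 (limma adjusted p = 0.995). Hand2os1, antisense to the cardiac transcription factor gene Hand2, had 1069, 1062 and 1386 against 1224, 1058 and 1208. Gata6os, antisense to the transcription factor gene Gata6, had 320, 258 and 315 against 301, 366 and 322. Neither of these passed the test. The values of 5430431A17Rik were 1119, 1184 and 925 against 1175, 1092 and 1179, those of Gm47644 were 880, 874 and 750 against 849, 785 and 975, and those of ENSMUSG00000121179 were 716, 671 and 718 against 669, 614 and 693. Groups overlapped in all 3.

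Of the 10 genes with the highest means, 3 were low in knockout replicate 3 alone, of which 2 are given here. Atcayos, antisense to Nmrk2, had values of 1335, 1364 and 747 in knockout and 1449, 1290 and 1497 in wildtype libraries (-0.35, limma adjusted p = 0.523, and -0.06 with 0.72 without that library). AI480526, divergent from the histone methyltransferase gene Setd1b, had 695, 639 and 313 against 700, 676 and 769 (-0.46, limma adjusted p = 0.503, and -0.10 with 0.538 without it). Knockout replicates 1 and 2 lay within or near the wildtype range in both. Nmrk2, the partner of Atcayos, went the other way in knockout replicate 3, with 86, 92 and 330 in knockout and 49, 46 and 63 in wildtype libraries. Gm15441, antisense to Txnip, a thioredoxin regulator, had 277, 250 and 97 against 267, 235 and 297, and Txnip had 2158, 2255 and 1171 against 2205, 2092 and 2434. Both members of this pair were lowest in the same library, and without it their log2 fold changes were -0.01 (Gm15441) and -0.02 (Txnip). Of the 42 genes low in this library, 13 were antisense, 12 divergent, 15 without overlap and 2 on the same strand. Of the 34 among them with a GENCODE M21 gene model, 23.5% had a single exon, against 13.8% of the 152 of 183 with such a model and 1.7% of tested protein coding genes.

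**Figure D4:**
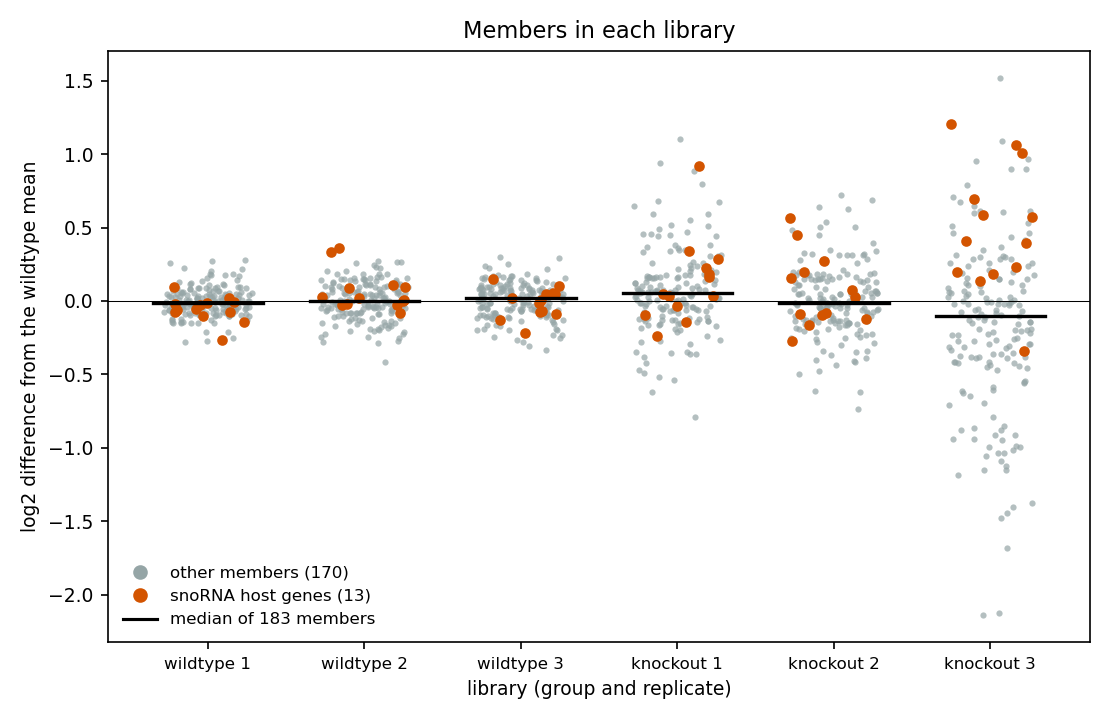
Each point is 1 of 183 long noncoding RNAs in 1 library, as the log2 difference of its value from the mean of the 3 wildtype libraries (vertical axis), with host genes of snoRNAs in orange and black lines for the median of all 183. Wildtype libraries are close to 0 partly because they form the mean, and knockout replicate 3 has the widest spread, with a median of -0.10.

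The host genes of snoRNAs came next, and the 40 bases around the annotated start are shown for 5 of them with a run of at least 6 pyrimidines, because such genes are known to begin transcription in a run of pyrimidines, as ribosomal protein genes do. Each window runs from 20 bases before to 20 bases after the start in the RefSeq table of GRCm38.p6. The longest run of C and T, wherever in the window it lies, is in capitals. Counted from the annotated start at 0, this run begins at -1 in Gas5, 4 in Snhg1, -3 in Snhg12, 7 in Snhg16 and 0 in Snhg17. In Snhg1 and Snhg16 it therefore lies after that start.
Gas5: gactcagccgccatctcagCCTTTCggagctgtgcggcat
Snhg1: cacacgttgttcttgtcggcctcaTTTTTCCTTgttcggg
Snhg12: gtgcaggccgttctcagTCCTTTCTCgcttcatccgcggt
Snhg16: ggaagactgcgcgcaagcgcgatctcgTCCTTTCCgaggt
Snhg17: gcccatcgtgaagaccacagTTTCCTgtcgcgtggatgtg
A run of at least 6 lay somewhere in this window, and not always at the start, in 9 of 13 host promoters, from 11 genes. The same held for 37.5% of all 32851 promoters. A run of at least 8 was found in 4 of 13 and in 16% of all. Gas5 and Snhg17 each have a second annotated start, not printed here, with longest runs of 3 and 7.

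Of the 13 snoRNA hosts, 1 rose (Snhg14) and 0 fell, and 12 had a log2 fold change above 0 (median 0.18). Knockout replicate 3 was the highest of the 6 libraries in 11 of the 13, against 41 of all 183. Without it the median was 0.03 and 7 of 13 were above 0. Snhg17 had values of 203, 228 and 385 in knockout and 138, 210 and 159 in wildtype libraries (0.65, limma adjusted p = 0.283, and 0.37 with 0.218 without knockout replicate 3). Snhg12 had 131, 143 and 228 against 133, 149 and 139, and Snhg16 had 128, 93 and 237 against 102, 145 and 97. In each of these 3 genes knockout replicate 3 was far above every other library, and without it the log2 fold change was -0.03 in Snhg12 and -0.05 in Snhg16. Snhg5 (158, 175 and 227 against 145, 155 and 158), Snhg6 (122, 112 and 180 against 121, 129 and 109) and Gm12940 (117, 127 and 182 against 137, 139 and 139) were high in the same library. Gas5, named for its rise in growth-arrested cells, had 403, 414 and 452 against 380, 402 and 400. Snhg1 had 224, 217 and 269 against 226, 225 and 237, and Zfas1 had 187, 184 and 234 against 202, 203 and 214. Snhg20 ran the other way, with 182, 160 and 113 against 137, 135 and 159, and Snhg18 had 191, 160 and 188 against 159, 171 and 183.

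Of the 6 listed hosts of microRNAs, 5 are shown with mature sequences they carry, to show which of them carry related microRNAs. A microRNA pairs with its targets mainly through its seed, bases 2 to 8, here in capitals, and the sequences are from RefSeq (GRCm38.p6).
Mir99ahg, mmu-miR-99a-5p: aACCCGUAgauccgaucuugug
Mir100hg, mmu-miR-100-5p: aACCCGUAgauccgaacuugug
Mir99ahg, mmu-let-7c-5p: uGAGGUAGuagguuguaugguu
Mir99ahg and Mir100hg, mmu-miR-125b-5p: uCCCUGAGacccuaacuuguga
Dleu2, mmu-miR-15a-5p: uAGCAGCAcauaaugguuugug
Dleu2, mmu-miR-16-5p: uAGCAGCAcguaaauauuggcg
Mir22hg, mmu-miR-22-3p: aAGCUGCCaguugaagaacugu
Dnm3os, mmu-miR-199a-3p: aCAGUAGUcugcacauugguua
Dnm3os, mmu-miR-214-3p: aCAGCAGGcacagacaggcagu
The seed ACCCGUA is shared by the microRNAs of Mir99ahg and Mir100hg, and the seed AGCAGCA by both microRNAs of Dleu2. The let-7c seed GAGGUAG of Mir99ahg is also that of let-7a, let-7d and let-7f in 6720427I07Rik, a gene not on the list. The search found 36 entries of mature microRNAs, with 29 different seeds, inside 9 genes. It counted miR-125b-5p once in Mir99ahg and once in Mir100hg. It needed a GENCODE M21 gene model, which 152 of the 183 genes have. Not every gene was searched, so these counts are not totals for the 183. The libraries measured the host transcripts and not the mature microRNAs.

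Of the 6 listed microRNA hosts, 0 passed the limma test, and 2 (Rian, given above, and Mir99ahg) had an unadjusted p under 0.05. Mir99ahg had values of 138, 120 and 153 in knockout and 103, 116 and 99 in wildtype libraries (0.36, limma adjusted p = 0.226), and Mir22hg had 209, 199 and 218 against 188, 186 and 164 (0.22, limma adjusted p = 0.309). In both, the groups did not overlap. Mir100hg, whose microRNAs share seeds with those of Mir99ahg, had 388, 486 and 233 against 494, 517 and 479 (-0.49, limma adjusted p = 0.396, and -0.19 with 0.271 without knockout replicate 3). Dnm3os, the antisense transcript of Dnm3 that carries miR-199a and miR-214, had 247, 253 and 71 against 180, 239 and 185. Its 2 other knockout libraries lay above all wildtype libraries, so that the direction rested on replicate 3: the log2 fold change was -0.28 with all libraries (limma adjusted p = 0.827) and 0.32 without it (0.156). Dnm3 itself was highest in knockout replicate 3, with 88, 60 and 146 against 52, 69 and 42. Dleu2 had 96, 143 and 148 against 157, 144 and 144 (-0.22, limma adjusted p = 0.547).

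**Figure D5:**
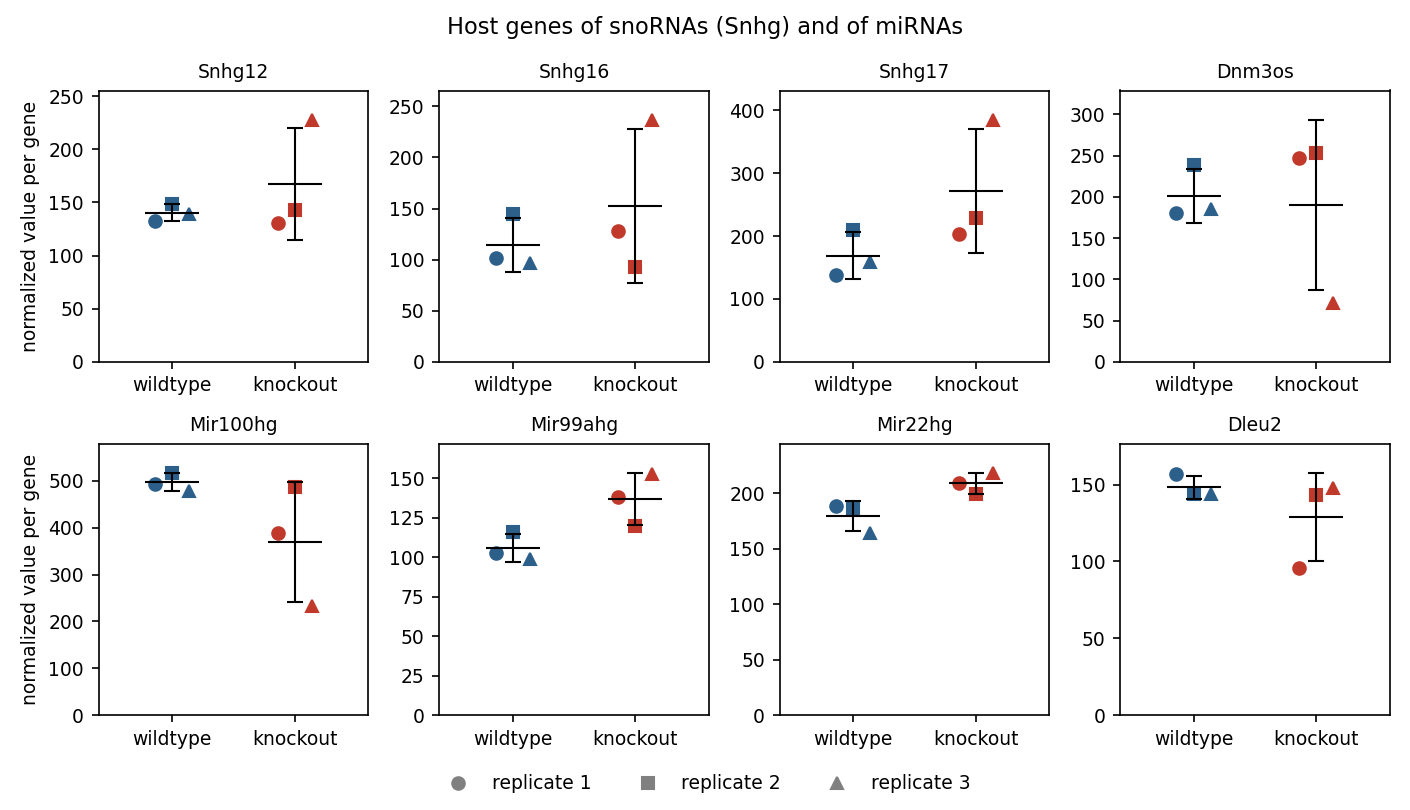
Normalized values per library (vertical axes, from 0) of 3 snoRNA hosts and 5 microRNA hosts in wildtype (blue) and knockout (red) libraries, with lines for the mean and bars of 1 SD. Knockout replicate 3 (red triangle) is the highest library in the Snhg12, Snhg16 and Snhg17 panels and the lowest in the Dnm3os and Mir100hg panels.

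The imprinted genes of the list numbered 5, of which 1 rose (Snhg14), 0 fell and all 5 had log2 fold changes above 0, with a median of 0.20 and of 0.24 without knockout replicate 3. Peg13 had values of 356, 333 and 345 in knockout and 323, 341 and 334 in wildtype libraries. Rian lies on chromosome 12 in the same cluster as Meg3, a gene left out by the rule. Meg3 had values of 1472, 1517 and 1536 against 1236, 1150 and 1173 and rose by 0.35 on the log2 scale (limma adjusted p = 0.0399). Igf2os, antisense to the imprinted growth factor gene Igf2, was not on the list and had 197, 210 and 174 against 246, 230 and 223 (-0.27, limma adjusted p = 0.226). Its groups did not overlap, with the knockout libraries lower.

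The remaining lists were small. Of 4 genes linked to p53 (Gas5, Dleu2, Neat1 and Snhg1), 0 was called. Of 2 genes annotated as noncoding for which a small protein is known, 0 was called, with values of 160, 138 and 196 against 139, 146 and 156 in 2410006H16Rik and of 171, 164 and 200 against 163, 177 and 152 in 1110038B12Rik. The groups overlapped in both.

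RBPMS is known to bind pairs of CAC triplets. The longest GENCODE M21 transcript of each gene was therefore searched for CAC with the next CAC after 1 to 12 bases. Only neighbouring triplets were paired, so a repeat such as CACACAC, in which triplets overlap, gave no pair. The median was 2.23 such pairs per kilobase over 152 of the 183 genes, 2.72 over 1212 tested long noncoding RNAs and 2.52 over 13174 tested protein coding genes. For 3 of the genes that rose, the 80 bases with the most CAC triplets are shown, with CAC in capitals and positions counted from the transcript's first base.
Hectd2os, bases 1338 to 1417: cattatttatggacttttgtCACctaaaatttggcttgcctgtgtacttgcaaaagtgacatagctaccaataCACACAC
Snhg14, bases 3129 to 3208: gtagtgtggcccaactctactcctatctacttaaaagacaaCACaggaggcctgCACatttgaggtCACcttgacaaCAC
E230013L22Rik, bases 908 to 987: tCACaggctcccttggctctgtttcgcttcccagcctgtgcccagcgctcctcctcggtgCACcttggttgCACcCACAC
These windows hold 4, 4 and 5 triplets. Over the whole transcript Hectd2os had 0.751 pairs per kilobase, Snhg14 0.729 and E230013L22Rik 2.69. Counted this way, the first 2 lay below all 3 medians. The last lay between that of tested long noncoding RNAs and the other medians. A match is a description of the letters, and binding was not measured.

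Per kilobase of exon, where levels can be compared between genes, the order differed from that by value alone. Gm29015, with an exon length of 207 bases, was highest at 752.8, followed by 5430431A17Rik at 720.9 and Gm49540 at 515.4, while Malat1 stood at 328.1. Gm29015 lies antisense to Myh7, at 3.40% to 3.77% of its value over the libraries. Gm49540 lies antisense to Mb, at 32.9% to 39.0% of its value. Whether reads of these partners entered the 2 levels was not tested, as the strand setting of the counting is not known. The libraries of Gm29015 ran from 690.8 to 821.3 and those of 5430431A17Rik from 599.5 to 767.3, so these neighbours in the order overlapped. The estimated reads per exon base of these 3 genes were above 0.5, with the highest at 0.76, and 76 genes of the whole table were above 0.5, with the highest, Mybpc3, at 0.925. Whether fold changes are compressed at such levels was not tested.

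The 3 genes just inside the rule were 2610035D17Rik, ENSMUSG00000120507 and A930033H14Rik, with means of 100.5, 100.8 and 101.7. Those just outside were ENSMUSG00000120796, 2810001G20Rik and BC002189, with means of 99.7, 99.7 and 98.8. With a mean of at least 50 the rule gave 394 genes, of which 6 rose and 0 fell, and with a mean of at least 200 it gave 65 genes, of which 5 rose and 0 fell. The 183 genes together made up between 0.85% (knockout replicate 3) and 0.945% (knockout replicate 1) of the summed values of a library, and between 0.91% and 0.92% in the wildtype libraries.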

How the data were processed

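Heart RNA of 3 knockout and 3 wildtype libraries was made into stranded libraries, per the labels' protocols. STAR 2.7.11a, featureCounts 2.0.4, Picard 3.0.0, Trimmomatic 0.39, DESeq2 1.36.0 and the build mm39 are named, with no role or order, per the submitters' processing notes. The unit of the deposited table is taken as a score, since its whole numbers are scaled and rounded reads, as read from the values. The sources used here do not give a strand setting or a filter. A value of 100 rests on about 100 reads, with a counting error near 10%.

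Of 20893 genes, 14974 reached 10 in 3 or more libraries. They were tested in R 4.3.3 by limma 3.58.1 (statmod 1.5.0) with trend, robust moderation and no covariate, after log2(value + 1). P-values were adjusted by Benjamini-Hochberg over all of them, with a threshold of 0.05. On simulated data with 14995 genes tested, this called 50% of genes changed 1.5-fold, 92.6% changed 2-fold and 100% changed 4-fold, and 4 of 164 calls were false. The simulation gave every gene and library the same dispersion, and no simulated library stood apart as knockout replicate 3 does. These shares therefore need not hold for the real libraries.

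The genes described and all lists were chosen with earlier results of these data known. Named with values were every called gene, the 10 smallest p, the 10 highest means, list members and some partners of the first 2 classes. The partners Bod1, Rhobtb1 and Actc1, and Rtl1 (of Rian) and Gm38393 (of Snhg14), are given without values. The 3 genes on each side of the cutoff are given by their means, and only A930033H14Rik among them also by its values. Genes singled out for knockout replicate 3 and their partners, Gm15270, BC043934 and Igf2os were chosen after their values were seen. The values of 1 of the 10 genes with the highest means are not reported here. Positions relative to protein coding genes used the coordinates of the deposited table (mm39). Exon lengths, transcripts (GENCODE M21) and sequences (RefSeq) were of GRCm38, matched by identifier or symbol, with a gene model for 152 of 183 genes and a promoter for 98. Alternatives covered scaling, pseudocount, filter, moderation, a replicate block, a term for sex, each library left out and, added after seeing the data, male libraries only. The labels do not state that the numbers pair libraries, and the main fit did not pair them. Same-numbered libraries did not deviate together (correlations -0.1687, -0.111 and -0.1305), but with 3 libraries per group this cannot exclude pairing.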

Additional observations from a re-analysis of the deposited data

How the results depend on the processing

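The 6 higher calls among the long noncoding RNAs were 4 to 6 under other scalings, pseudocounts and filters, 0 without trend and robust moderation, and 2 with voom weights. Without trend and robust moderation, 32 had an unadjusted p under 0.05 in limma, against 2315 of all 14974 tested genes. All 6 were called with a term for sex and with male libraries only. With male libraries only, 1 member was also lower. Over the fits without 1 library the count ran from 0 to 10 higher and from 0 to 2 lower. The median log2 fold change of the members, -0.0145 with all libraries, was 0.0179 without knockout replicate 3 and 0.0203 in male libraries.

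Over all tested genes, 76 were higher and 65 lower. The higher count was 42 after rescaling to the library total (58 lower), 117 with no filter, 40 with a mean of at least 50, 8 without trend and robust moderation, 29 with voom (44 lower), 122 with sex as a term and 125 in the male libraries. The lower count was 101 with no filter, 38 with a mean of at least 50, 16 without trend and robust moderation, 101 with sex as a term and 131 in the male libraries. Leaving out 1 library gave 0 to 338 higher and 0 to 389 lower. A fit with a replicate block gave 12 higher and 11 lower over all genes and 0 of the long noncoding RNAs. At an unadjusted p under 0.05 in limma it gave 34 of these, against 2085 of all tested genes. The labels do not state whether the numbers pair the samples, and the values cannot settle it. The cause of these differences was not tested. The direction of the 6 called long noncoding RNAs and of Ankrd1 held in all 18 alternative fits. For the other genes called with all libraries it was not followed over the fits.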

Other observations

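Outside the rule, 5 long noncoding RNAs with a mean under 100 had a limma adjusted p under 0.05, and 3 of them had values of at least 10 in all 6 libraries. Gm28592 had values of 52, 53 and 76 in knockout and 23, 16 and 27 in wildtype libraries (log2 fold change 1.42, limma adjusted p = 0.0472). ENSMUSG00000120521 had 77, 67 and 66 against 21, 29 and 28 (1.41, limma adjusted p = 0.0233). Gm20234 had 13, 15 and 13 against 38, 43 and 50 (-1.60, limma adjusted p = 0.0233). The groups did not overlap in these 3 genes. The other two passed the filter on low values only through the group where they are high, so their difference is a description: 1810041H14Rik had 22, 10 and 16 in knockout and 0, 2 and 1 in wildtype libraries, and Gm15690 had 8, 9 and 9 against 31, 39 and 38.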
